A study of Mus musculus with 2 samples.

Results

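Weak CTCF bins are stretches of 1 kb on mouse chromosomes 1 to 19 that held 7 to 9 reads of CTCF chromatin immunoprecipitation (ChIP), at most 2 reads of whole-cell extract and no adjacent bin of 7 or more ChIP reads. Each read was moved about 0.10 kb towards its 3′ end, to the middle of its fragment, and counted in fixed bins that start at position 0. The rule found 3732 such bins among the 1935906 autosomal bins with a read of either library, or 0.193%. The bins were chosen by these read counts, summed over strands, so the counts themselves are a description and carry no test.

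CTCF is a zinc-finger protein that binds DNA at a long sequence motif, blocks enhancers at insulators and halts the cohesin complex at the ends of chromatin loops. Its sites range from strongly and constantly occupied to weakly or variably occupied, and weak ones merge into the background of a shallow ChIP library. When a protein covers a point on DNA, ChIP fragments overlap that point, so plus-strand reads begin upstream of it and minus-strand reads begin downstream of it. The rule summed reads over strands and set no limit on this order, and the weak bins were examined for it here. It did move plus- and minus-strand reads in opposite directions before counting, so the order is not independent of the rule. With no shift, 66.6% of the weak bins were found again. Extract bins and unshifted bins are therefore given beside the weak bins.

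Both libraries came from V6.5, a male mouse embryonic stem cell line of genotype 129SvJaexC57BL/6 used at passages 10 to 15, grown on irradiated feeder fibroblasts and then passaged on gelatin to remove them. The labels tell the groups apart by the material alone and give both the same protocol text: 1 library is DNA recovered with an antibody to CTCF, the other is whole-cell extract, chromatin taken as a control without an antibody. Each was amplified by 15 cycles of PCR and sequenced as 36-base reads. The ChIP library held 2325631 autosomal reads (0.944 per kb) and the extract 4592161 (1.86 per kb), the latter from 2 lanes. There was 1 library per group, so nothing below has a replicate check. Tests compare these libraries and not conditions, bins of 1 library are not replicates, and intervals (95%, exact) cover counting error only. The identity of the cells could not be checked against marker genes in DNA of this kind.

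The weak bins form a slope of read counts with no step at its ends. There were 1572 bins of 7 reads, 1181 of 8 and 979 of 9. Just outside the rule, under the same limits on extract and neighbours, lay 2201 bins of 6 reads and 853 of 10. The 3732 bins held 29263 ChIP reads, 1.26% of the autosomal total, against 27.4% in the 29265 strong bins, which are all bins of 10 or more ChIP reads. They held 4713 extract reads. No extract read fell in 675 of them (18.1%), 1 read in 1401 and 2 reads in 1656.

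The limit on extract reads removed more bins than it kept. Of 10299 autosomal bins with 7 to 9 ChIP reads, 5306 (51.5%) had over 2 extract reads. A further 1261 had an adjacent bin of 7 or more ChIP reads. Bins of 7 to 9 ChIP reads had a mean of 2.92 extract reads before the limit was applied, against 2.37 over all autosomal bins with a read. The weak bins described here are thus those in which the extract was also sparse.

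Far fewer bins of this kind were expected by chance. Eligible bins are those with a read, at most 2 extract reads and no adjacent bin of 7 or more ChIP reads, and there were 1140353 of them. Eligible bins under 7 reads held a mean of 0.771 ChIP reads. With that mean, a Poisson distribution gave 18.7 bins of 7 to 9 reads, so 3732 was 199.9 times the expected number (95% interval 193.6 to 206.4 from the observed count alone). The difference opened with the count. At 3 reads, 38187 bins were observed and 40249 expected. At 4 reads the numbers were 10980 and 7754, at 5 reads 4122 and 1195, and at 7 reads 1572 and 16.9.

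The expected number moved with the model of the background, and in each of the models below it stayed under the number observed. A negative binomial distribution fitted to bins of 0 to 4 reads gave 35.4 bins. A Poisson mean taken for each bin from the low bins within 50 kb on each side gave 90.2. The mean of all bins with a read, 1.20, includes the reads of enriched bins and gave 287.6. The least favourable comparison came from the extract itself. When its lane of 2528408 reads took the place of the ChIP and the other lane that of the extract, 1725 bins met the rule, so the weak bins were 2.16 times as many (2.09 to 2.23). That lane was denser than the ChIP background, with a mean of 1.35 reads per eligible bin, and the limit of 2 reads was looser in a lane of 2162696 reads. With at most 1 read in the other lane, 1099 bins met the rule.

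**Figure D1:**
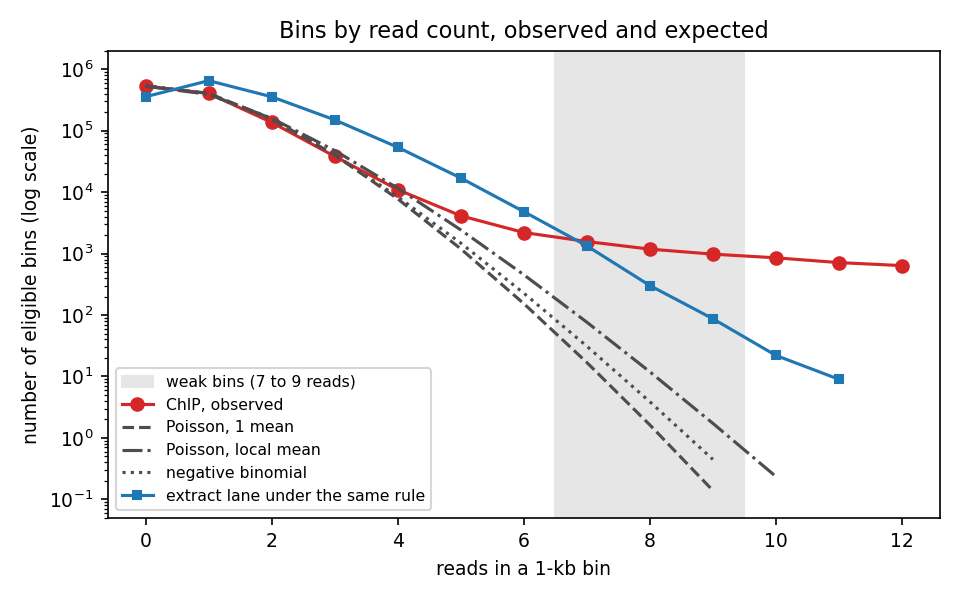
Number of eligible 1-kb bins (log axis) against reads per bin for the ChIP library, for 3 computed backgrounds and for 1 extract lane put through the same rule. ChIP bins follow the computed curves up to 3 reads and flatten from 5 reads on, with 1572 bins at 7 reads and 979 at 9. The extract lane falls steeply, from 1336 bins at 7 reads to 87 at 9.

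As a description of the same contrast, each bin with a ChIP read was set against the largest of the autosome mean and the scaled extract in 1, 5 and 11 bins with a one-sided exact Poisson test. Of 1077808 bins tested, 37759 (3.5%) had a Benjamini-Hochberg adjusted p under 0.05. Among weak bins 3503 (93.9%) did, namely 1364 of those with 7 reads, 1160 with 8 and all 979 with 9. The median weak bin held 6.53 times its expected count. The rule used these counts, so nothing follows from this share.

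Reads of the weak bins lay in strand order. Order was measured as the median minus-strand 5′ end less the median plus-strand 5′ end, in unshifted positions, and a bin was called ordered when this offset lay between 100 and 300 bp. The shift by itself places the strand medians of an evenly covered bin about 0.20 kb apart. The reference is thus bins of the extract built with the same shift and neighbour limit. No limit was set on reads of the other library in them. Of the weak bins, 2244 (60.1%, 58.5 to 61.7) were ordered, against 9460 of 34105 extract bins of 7 to 9 reads (27.7%, 27.3 to 28.2). The odds ratio was 3.93, and the p of Fisher's exact test (two-sided) was too small for the software to tell from 0. Against 2373 bins of 7 to 9 reads from the larger extract lane, which is closer to the ChIP in depth, 26.7% of which were ordered (24.9 to 28.5), the p was 1.01e-147. These lane bins had no limit on the other lane either. With at most 2 reads there, 26.2% of 1725 lane bins were ordered (24.1 to 28.3), and no test was made against them.

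The offsets themselves were narrower than in the extract. The median offset was 218 bp in weak bins, with quartiles at 141 and 294.5 bp. In extract bins it was 199 bp, with quartiles at 10.5 and 389.5 bp. In 8882 isolated strong bins, those of 10 or more reads under the same limits, the quartiles were 163 and 250 bp around a median of 203 bp. The weak bins thus lay between the extract and the strong bins in spread. The isolated strong bins hold more reads, up to 167, and medians of more reads are more precise. At nearly equal counts the spread was alike, with quartiles at 147.5 and 281 bp in bins of 9 reads and 145 and 278 bp in bins of 10.

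Bins were also counted without any shift, where even coverage places the strand medians together. There 3620 bins met the rule. The minus-strand median lay downstream of the plus-strand median in 83.6% (82.3 to 84.8) of the 3491 with reads on both strands. In extract bins counted the same way this share was 52.7% (52.1 to 53.2). Fisher's exact test (two-sided) gave p = 7.72e-296. The median offset was 164.5 bp in the ChIP and 20 bp in the extract.

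Single pairs of reads showed the same order without reference to a median. Of the 50020 pairs of a plus- and a minus-strand read within a weak bin, 42.7% were 100 to 300 bp apart. Reads spread evenly over a bin would give 19%, extract bins gave 20.8% and isolated strong bins 50.1%. The most frequent distance, in counts summed over 31 bp, was 205 bp in weak bins, 202 bp in isolated strong bins and 208 bp in extract bins. The shift places it near 0.20 kb in each of these sets. In weak bins counted without a shift it was 144 bp. Pairs on 1 strand were also close, with 46.1% within 100 bp against 19% for even spread, 20.8% in the extract and 51% in isolated strong bins. In the median weak bin, 6 reads fitted into 200 bp after the shift, and all reads spanned 468 bp. The corresponding medians in extract bins were 4 reads and 763 bp.

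**Figure D2:**
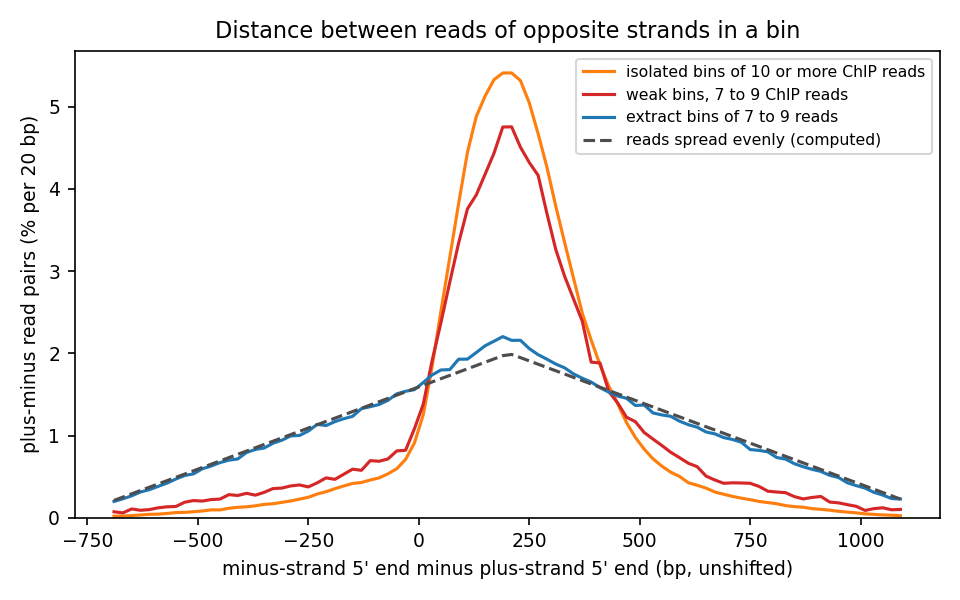
Share of plus-minus read pairs per 20 bp against the distance from the plus-strand to the minus-strand 5′ end, for weak bins, isolated bins of 10 or more reads, extract bins of 7 to 9 reads and the share computed for evenly spread reads. Weak bins peak near 205 bp, at a height slightly below the strong bins, while extract bins stay close to the computed triangle. The shift places the top of that triangle at about 0.20 kb.

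Order rose with the read count through the weak range. It was found in 53.0% of bins of 7 reads (50.5 to 55.5), 61.7% of 8 (58.9 to 64.5) and 69.7% of 9 (66.7 to 72.5). Bins of 9 reads were ordered more often than those of 7 (odds ratio 2.04, Fisher's exact test, two-sided, adjusted p = 2.34e-16 over 5 comparisons within the weak bins). Medians of more reads are more precise, and in extract bins the share also rose, from 26.9% at 7 reads to 30.9% at 9. The share of pairs 100 to 300 bp apart does not rest on medians. It was 39.6%, 43.3% and 44.9% in weak bins of 7, 8 and 9 reads, and between 20.6% and 20.8% in the extract at each of these counts.

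The weak bins stand on a continuous rise. Under the same limits, 25% of bins of 4 reads were ordered, 45.5% of 6 and 69.3% of 10. The share reached 93.8% in bins of 20 to 39 reads and 95.4% in bins of 40 to 167. Weak bins were ordered less often than isolated strong bins as a whole, of which 85.0% were ordered (odds ratio 0.267, Fisher's exact test, two-sided, p = 4.67e-192). That comparison is also one of unlike read counts. Bins of 10 reads, at 69.3%, were near those of 9, at 69.7%.

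**Figure D3:**
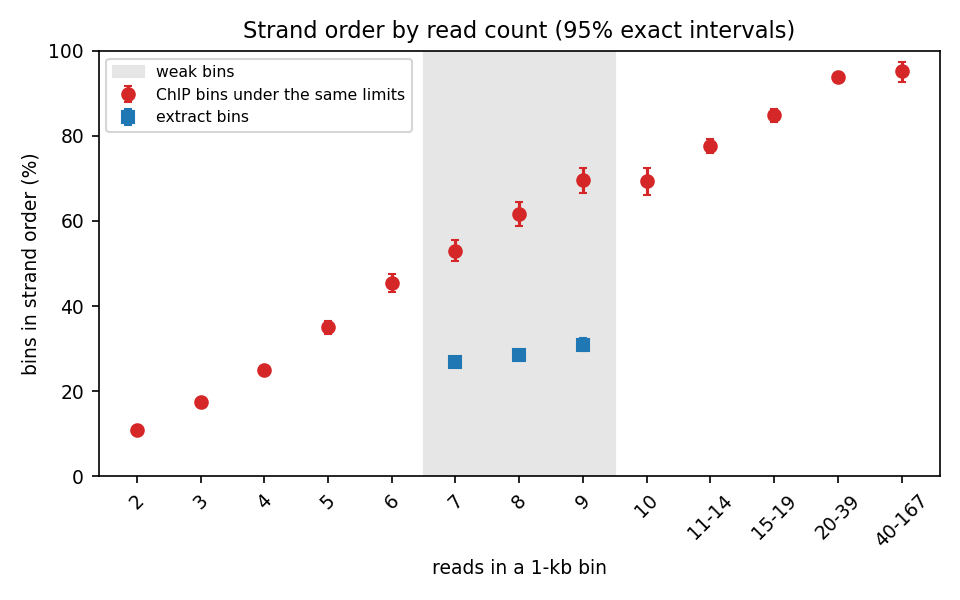
Share of bins in strand order against reads per bin, with 95% exact binomial intervals, for ChIP bins under the limits of the rule and for extract bins of 7, 8 and 9 reads. The ChIP share climbs from 10.9% at 2 reads to 95.4% at 40 or more, and at 7 to 9 reads it stands above the extract. Bins with reads on 1 strand alone count as not ordered. At 2 reads, 68016 of 136329 bins had both strands, and 21.9% of their pairs were 100 to 300 bp apart.

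Summed over weak bins, the strands were close to even. They held 14538 plus-strand and 14725 minus-strand reads, or 49.7% plus (49.1 to 50.3). Single bins were somewhat less even than equal odds give. At least 3 reads on each strand were present in 2418 bins (64.8%), against 67.1% computed for even odds. All reads were on 1 strand in 50 bins, against 37.6 computed. The exact binomial test (two-sided, Benjamini-Hochberg over 3732 bins) called 0 bins, or 0%, and 97 had an unadjusted p under 0.05 where even odds give 72.0. The smallest p that a bin of 9 reads can reach is 0.00391, and the 7 bins at that value had an adjusted p of 1, so this test says little about single bins at such counts.

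Individual bins are given as examples, not as support for these shares. The compact examples below were taken as the pair with the shortest span of shifted reads among bins with 0 extract reads and at least 3 reads on each strand, for each count. Positions are in build mm8, counted from 1, and read positions are given relative to the median shifted read. On chromosome 19 from 56345001 to 56346000, 7 reads spanned 83 bp, with 3 plus-strand ends between -111 and -85 bp and 4 minus-strand ends between 61 and 144 bp. The nearest strong bin was 15 kb away. On chromosome 2 from 82811001 to 82812000, 7 reads spanned 84 bp with an offset of 240.5 bp, and the nearest strong bin was 330.0 kb away. Both bins had 1 and 2 ChIP reads in their adjacent bins.

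Compact bins of 8 and 9 reads looked alike. On chromosome 3 from 131526001 to 131527000, 4 plus-strand ends lay between -139 and -32 bp and 4 minus-strand ends between 40 and 138 bp. On chromosome 12 from 25219001 to 25220000, 3 plus-strand and 5 minus-strand reads spanned 132 bp with an offset of 110.0 bp. On chromosome 17 from 69254001 to 69255000, 9 reads spanned 103 bp and both adjacent bins held 0 ChIP reads. In these bins no plus-strand end lay downstream of the median read and no minus-strand end upstream of it. They were picked for a short span of shifted reads. Undoing a shift of about 0.10 kb then separates the strands, so the choice of bins largely gives this order.

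The bin on chromosome 13 from 18132001 to 18133000 had further reads just across a bin border. Its 9 reads spanned 104 bp and its left neighbour held 6 reads. A window of 1 kb centred on its median read held 13.

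Bins at the median span were looser. On chromosome 1 from 54923001 to 54924000, 7 reads spanned 423 bp and 1 minus-strand end lay at -232 bp, apart from the others. On chromosome 4 from 129051001 to 129052000, 1 plus-strand end lay at -499 bp, while the 5 minus-strand ends lay between 10 and 139 bp. On chromosome 12 from 111998001 to 111999000, 9 reads spanned 520 bp and the offset of 307 bp missed the limit for order. In the first of these bins 6 reads fitted into 200 bp, and in the others 7.

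**Figure D4:**
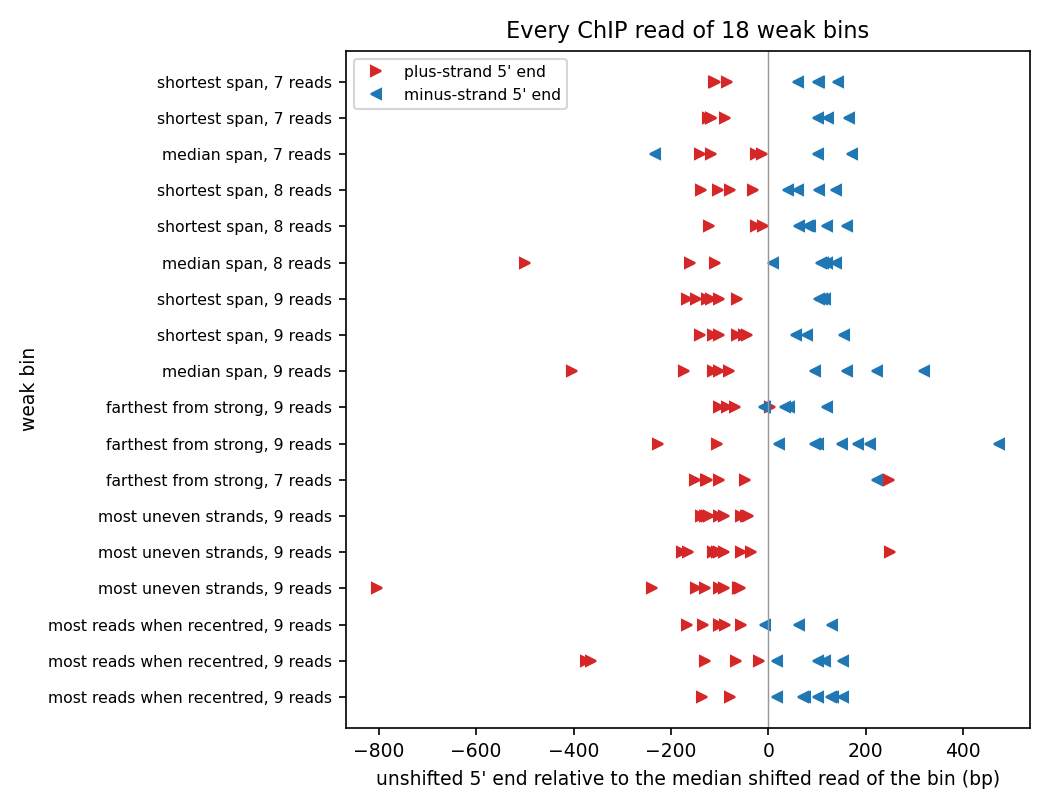
Unshifted 5′ end of every ChIP read in 18 weak bins, in bp from the median shifted read, with plus-strand ends as right-pointing and minus-strand ends as left-pointing triangles. Rows follow the groups named at the left. In the shortest-span rows plus-strand ends lie left of 0 and minus-strand ends right of it, which the choice by short shifted span largely gives. The rows of the most uneven strands hold 9 plus-strand reads each.

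The most uneven bins held 9 reads on 1 strand and none on the other. There were 7 of these, 5 with plus-strand and 2 with minus-strand reads alone, 3 of them on chromosome 4 and 1 each on chromosomes 6, 8, 15 and 19. The first 3 in chromosome order, each of plus-strand reads, are described here. On chromosome 4 from 4656001 to 4657000, the 9 reads spanned 96 bp, with 0 extract reads and the nearest strong bin 589 kb away. On chromosome 4 from 104663001 to 104664000 they spanned 427 bp, and from 126510001 to 126511000 they spanned 744 bp, with 8 of 9 reads within 200 bp in each. None passed the adjusted test for strand balance, which says little about single bins at such counts, as stated above.

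Weak bins lay nearer to strong bins than bins of 1 to 3 ChIP reads did. Distance was counted between bin starts, and the rule keeps it at 2 kb or more. The median weak bin was 22 kb from a strong bin, with quartiles at 9 and 58 kb. The comparison is with 578642 bins of 1 to 3 ChIP reads under the same limits, whose median was 53 kb with quartiles at 17 and 168 kb. Within 10 kb of a strong bin lay 1116 weak bins (29.9%, 28.4 to 31.4) and 94334 comparison bins (16.3%, 16.2 to 16.4). The odds ratio was 2.19 (Fisher's exact test, two-sided, p = 5.42e-94; bins near each other are not independent). The share was higher for weak bins on each of the 19 autosomes, where it ranged from 19.7% to 36.7%, against 12.1% to 23.4% for comparison bins.

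The density of weak bins fell with distance. Within 2 to 5 kb of a strong bin, 7.5 of 1000 eligible bins were weak (6.92 to 8.12). The density was 5.65 at 11 to 20 kb (5.24 to 6.09), 2.79 at 51 to 100 kb (2.55 to 3.04) and 0.628 beyond 500 kb (0.497 to 0.783). The ChIP background fell in the same direction. Eligible bins under 7 reads held a mean of 1.05 reads at 2 to 5 kb and 0.521 beyond 500 kb. A Poisson distribution with these means gives 0.111 and 0.00131 weak bins per 1000, so the number observed exceeded it at both ends of the range. What part of the slope goes with the background was not tested.

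**Figure D5:**
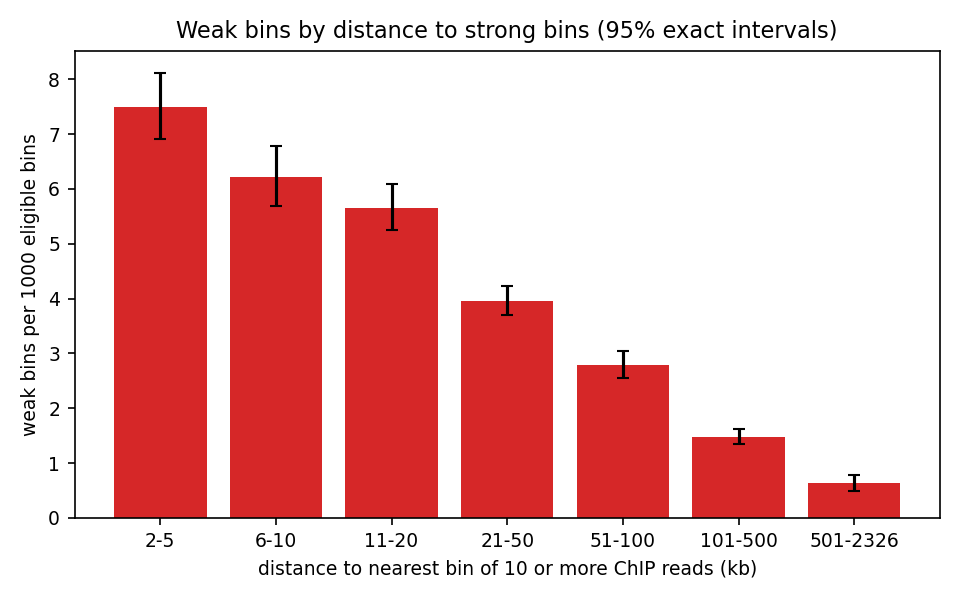
Weak bins per 1000 eligible bins in 7 classes of distance to the nearest bin of 10 or more ChIP reads, with 95% exact binomial intervals. The bars fall from 7.5 at 2 to 5 kb to 0.628 beyond 500 kb.

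Remote weak bins were ordered more often than near ones. Weak bins over 100 kb from a strong bin were ordered in 68.3% of cases (64.2 to 72.1, 555 bins), those within 10 kb in 56.4% (53.4 to 59.3, 1116 bins). The odds ratio, near to far, was 0.6 (Fisher's exact test, two-sided, adjusted p = 4.79e-06 over 5 comparisons). Among bins of 7 reads the shares were 60.8% far and 47.5% near. Among bins of 8 they were 72.7% and 56.3%. Among bins of 9 they were 74.6% (67.3 to 80.9) and 71.0% (65.4 to 76.1), intervals that overlap, with 67.3% at 11 to 100 kb. The share did not climb steadily over all weak bins, with 59.2% at 2 to 5 kb, 53.0% at 6 to 10 kb, 59.0% at 11 to 20 kb, 63.2% at 51 to 100 kb and 65.8% (54.3 to 76.1) beyond 500 kb.

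Nearness was not particular to the weak range. Under the same limits the share within 10 kb of a strong bin was 19.1% at 2 reads, 23.7% at 3, 28.1% at 4, 32.4% at 5 and 35.3% at 6. Within the weak range it was 30.5% at 7 reads, 29.0% at 8 and 29.9% at 9, with intervals that overlap. Within 100 kb of a strong bin lay 85.2% of weak bins of 7 reads, 87.0% of 8 and 82.7% of 9. Over all counts a strong bin lay within 100 kb of 85.1% of weak bins and 64.6% of comparison bins. Over 500 kb from any strong bin lay 79 weak bins (2.12%) and 8.95% of comparison bins.

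The 3 most remote weak bins differed in form. On chromosome 7 from 9229001 to 9230000, 2326 kb from a strong bin, 9 reads spanned 215 bp with 4 plus-strand ends between -102 and 3 bp and 5 minus-strand ends between -8 and 121 bp. This bin was ordered, with an offset of 112 bp. On chromosome 15 from 21830001 to 21831000, 1585 kb away, 2 plus-strand and 7 minus-strand reads gave an offset of 318 bp. On chromosome 3 from 24298001 to 24299000, 1546 kb away, 6 plus-strand reads and 1 minus-strand read gave an offset of 338 bp, so the latter pair of bins fell outside the range called ordered.

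The surroundings of weak bins carried more reads of both libraries than those of comparison bins. In bins 2 to 5 kb away on each side, the mean was 1.53 ChIP reads around weak bins, 1.0 around comparison bins and 1.87 around isolated strong bins. The same bins held means of 2.32, 1.99 and 2.41 extract reads. Weak bins thus lay in stretches where the extract was denser, although the rule held their own extract count at 2 or less. The part of this in their strand order or spacing was not tested.

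Some weak bins had further reads just across a bin border. A window of 1 kb centred on the median shifted read held 10 or more reads for 715 weak bins (19.2%), 7 to 9 for 2786 and fewer for 231. The median read lay within 100 bp of a border in 375 bins (10.0%). A single point placed evenly over a bin would give 20%, which is not the share for a median of 7 to 9 reads. The rule also drops bins with 7 or more ChIP reads across a border, so nothing follows from the difference. Of those 375, 64.0% reached 10 reads in the centred window, against 14.1% of the others. They were also ordered more often, in 76.5% against 58.3% of bins (Fisher's exact test, two-sided, adjusted p = 5.82e-12 over 5 comparisons). A border truncates the spread of reads beside it. Shifted reads between such a median and its border lie within 100 bp of each other. Undoing the shift of about 0.10 kb then separates the strands, so the split itself bears on the order. The test cannot tell this apart from a difference between the sites, and nothing follows from it. The highest centred count was 15, reached by 7 weak bins. The first 3 in chromosome order were 9-read bins on chromosome 1 from 130651001 to 130652000, chromosome 2 from 63304001 to 63305000 and chromosome 4 from 97056001 to 97057000. Each of the 3 had 6 reads in the bin to its right.

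Moving the grid by 500 bp replaced most members while leaving their number in place. The moved grid gave 3677 weak bins, and 1338 of the 3732 weak bins (35.9%) overlapped one of them. Of the rest, 1053 had fewer than 7 reads in both overlapping bins, 745 had 10 or more in the fuller one and 566 had 7 to 9 with over 2 extract reads. Those that dropped under 7 reads in both were ordered in 44.1% of cases, those found again in 65.6% and those that rose to 10 or more in 70.7%. This is a description, since the moved counts and the order come from the same reads.

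Weak bins were found on every autosome, from 113 on chromosome 18 to 273 on chromosome 5. Per Mb, chromosome 19 had 2.15 (1.80 to 2.55) and chromosome 11 had 2.06 (1.81 to 2.33). Chromosome 1 had 0.787 (0.668 to 0.921), the lowest, against an autosome median of 1.49. Chromosomes named in this paragraph were picked after their values were seen.

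Chromosome 1 also lost the most bins to the extract limit, whose part in its low density was not tested. Extract reads averaged 3.05 per bin there, against a median of 2.32 over autosomes, and 71.4% of its bins with 7 to 9 ChIP reads were removed for having over 2 extract reads. On chromosome 4 this share was 57.5%, and on the other autosomes it ran from 40.8% to 55.4%. Before that limit, chromosome 1 had 0.390 bins of 7 to 9 ChIP reads for each strong bin, within the autosome range of 0.319 to 0.410. After all limits it had 0.0852 weak bins for each strong bin, below the range of the others, whose highest was 0.180 on chromosome 16. Per 1000 eligible bins, chromosome 1 had 2.11 (1.79 to 2.46), still the lowest, against a median of 3.24. Chromosomes 1 and 4 together did not differ detectably from the others in strand order (58.9%, 53.7 to 64.0, against 60.3%, 58.6 to 61.9; Fisher's exact test, adjusted p = 0.769 over 5 comparisons).

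Strand order was above that of the extract on every autosome. It ranged from 50.8% on chromosome 19 (41.9 to 59.6) to 69.5% on chromosome 13 (61.5 to 76.8), and all 19 intervals lay above the 27.7% of extract bins. The number of extract reads in a weak bin made no detectable difference. With 0 extract reads 60.9% were ordered (57.1 to 64.6) and with 2 reads 60.5% (58.1 to 62.9; Fisher's exact test, adjusted p = 0.889 over 5 comparisons).

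The median distance to the nearest other weak bin was 156 kb, and 229 weak bins (6.14%) had another within 10 kb. Even spread over all positions of the autosomes would give a median of 229 kb and a share of 3.12%. Stretches without aligned reads are part of those positions, and the difference has no test. The 1-Mb stretch with the most weak bins lay on chromosome 8 from 109057001 to 109979000 and held 13, against a mean of 1.52 per Mb. The next densest stretch on another chromosome held 12. The 13 bins had 99 ChIP reads and 21 extract reads, and 37 strong bins lay among them. Of the 13, 3 were in strand order. This stretch was picked for its count, and its share of ordered bins has no test.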

How the data were processed

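The authors deposited aligned 36-base reads, 1 to a line, by position and strand, each with a number that names its lane. Build mm8 is named in the submitters' processing notes. Which aligner made them is not given in the sources used here. Starts were read as counted from 0, so positions may be off by 1 bp. No position and strand is repeated, so PCR copies were not counted, and each library holds at most 1 read per position and strand. Lanes of the extract were told apart by the read number.

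Reads were binned, and shares, exact tests and expected numbers computed, with Python 3.11.15, numpy 2.4.6, pandas 2.3.3 and scipy 1.17.1. Intervals of shares are Clopper-Pearson. The procedure was tested on simulated data. The 5 comparisons of strand order within the weak bins, the tests against 1 extract lane, isolated strong bins and unshifted extract bins, the flanks, the centred windows and the 2 stricter lane comparisons were added after seeing the data. The rule for the weak bins was set with earlier results of these data known. Named bins followed a rule: for each count, bins with 0 extract reads and at least 3 reads per strand with the shortest and the median span; the 3 most remote; the 3 most uneven; the 3 fullest when centred; and the densest 1 Mb. Ties went by chromosome, then start. Gene annotation and sequence of build mm8 were not used here, so motifs were not searched.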

Additional observations from a re-analysis of the deposited data

Results flagged for a closer look

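Chromosomes X and Y lie outside the rule and were counted in the same way. On X, 237 bins met the limits, where the larger extract lane put in place of the ChIP gave 0 and a Poisson distribution with the mean of low bins on X gave 0.0635. Of the 237, 174 (73.4%, 95% exact interval 67.3 to 78.9) were in strand order, and 22 (9.28%) lay within 10 kb of one of the 328 strong bins on X. Single autosomes held 864 to 2426 strong bins. Shares for extract bins and for bins of 1 to 3 ChIP reads on X are not given here. Neither share can thus be read as a trait of X. On Y, 4 bins met the limits against 0 in the extract lane, and 1 of the 4 was in strand order. X is present in 1 copy in these male cells; the difference between X and the autosomes was not tested.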

How the results depend on the processing

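The number of weak bins stayed within 1.5 times 3732 in 7 of 9 settings; it was 675 with 0 extract reads and 6156 with at most 4, as the limit's own construction gives. The ratio of observed to expected bins, 199.9, was 192 with no shift, 184 with at most 4 extract reads, 187 with adjacent bins under 4 ChIP reads, 214 without a limit on adjacent bins and 185 without chromosomes 1 and 4. It was 8.43 with 0 extract reads, where every eligible bin holds a ChIP read by construction. With other backgrounds it was 13 (mean of all bins with a read), 41.4 (local mean), 105 (negative binomial) and 2.16 (extract lanes). With at most 1 and 0 reads in the other lane, both added after seeing the data, it was 3.40 and 8.66. In both, the 3732 weak bins kept their own limit of 2 extract reads, so the limits are unlike. With a limit of 0 on each side, 675 weak bins stood against 431 lane bins. The share in strand order (54.3% to 92.3%) and the share within 10 kb of a strong bin (16.6% to 43.9%) kept their direction and a Fisher's exact p under 0.05 against their comparison bins in all 11 settings each. The ends of these ranges are unlike measures. Order was 54.3% with no shift (extract 23.2%) and 92.3% when any offset above 0 bp counted (extract 75.2%). Nearness was 16.6% with strong bins of at least 20 reads (comparison bins 8.49%). Without a limit on adjacent bins it was 43.9% (comparison bins 18.6%). No paired analysis was possible because ChIP and extract are single libraries, so leaving out replicates was not possible either. The motif search was not run. Depth limits single bins: at 7 to 9 reads none passed the adjusted test of strand balance, and order is described over many bins.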
